A study of Mus musculus with 16 samples.

Results

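The immediate early genes described here are 10 genes chosen by symbol: Fos, Jun, Junb, Egr1, Egr3, Klf4, Nr4a1, Ier2, Dusp1 and Arc. They are 10 of 16250 gene symbols given for at least 1 library, and all 10 are among the 13396 symbols given for all 16 libraries. They were picked with earlier results of the EE and SH comparison known, so their EE and SH values are given as a description, with no p for a single gene. Counts of genes called between EE and SH stand beside the share of all genes called, and nothing is read from them. The comparison of hippocampus with cortex was not used in choosing them and was tested.

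Bulk RNA was sequenced from brain tissue of wild-type (WT) mouse fetuses at embryonic day 18.5. EE marks an enriched environment, which as background is housing with added objects, space or company, and SH marks standard habitation, the ordinary cage; the series title places the enrichment before birth. The groups were hippocampus EE (3 libraries), hippocampus SH (3 libraries), cortex EE (5 libraries) and cortex SH (5 libraries), and all came from unmodified WT fetuses of 1 age. The labels name neither the fetuses nor their litters, so a p-value measures only the spread between these libraries, which may be partly technical.

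Immediate early genes are switched on within minutes of calcium entry, growth factor signalling or cell stress, without new protein synthesis. Kinases reach transcription factors already bound at their promoters, such as CREB at cAMP response elements and SRF with its partners at serum response elements, and the transcripts decay quickly. In neurons they serve as a readout of recent synaptic activity. Most encode transcription factors: Fos, Jun and Junb pair with one another in the AP-1 complex, Egr1 and Egr3 are zinc finger proteins, Klf4 is a Krüppel-like zinc finger protein and Nr4a1 is an orphan nuclear receptor. Ier2 encodes a small nuclear protein, Dusp1 a phosphatase that switches off MAP kinases, and Arc a cytoskeleton-associated protein that acts at synapses in the removal of AMPA receptors.

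Levels are in FPKM, a fragment count divided by transcript length and by library size, so they can be compared between genes per length. For genes that held 90.6% to 94.2% of a library's summed FPKM, whole reads could be recovered from the steps of the values. These reads are known up to a common factor per set of libraries. Hippocampus libraries held 16474852 to 21437128 of them, cortex replicates 1 to 3 held 15536810 to 21008623, and the other cortex replicates, 4 and 5, held 11785149 to 12533259. These 3 sets of libraries list different numbers of genes, 15247, 15996 and 13448, so they are treated as separate sets below. Cortex SH replicate 3 stood apart, with a summed FPKM of 511438 against 339726 to 396658 in the other libraries. Of the 8 genes of a hippocampal patterning list, 7 were higher in hippocampus than in cortex in the limma test and 1 was lower. Of all genes tested, 24.6% were higher and 10.9% lower. Among the higher were Zbtb20 with a log2 difference of 2.13 (limma, adjusted p = 2.17e-05) and Prox1 with 1.87 (adjusted p = 7.19e-05). Lmo3 was the lower one (-1.06, adjusted p = 5.65e-05). The list was chosen with earlier results of these data known, and these 3 genes were named after their values were seen. All 10 genes of a cortical neuron list were given for every library in both tissues.

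RefSeq promoters on GRCm38.p6 were at hand for 6 of the 10 genes: Fos, Jun, Junb, Klf4, Nr4a1 and Dusp1. The 250 bases before the start were searched on both strands for TGACG, the half-site of the cAMP response element, because CREB bound there is a known route from calcium to these genes. It was found in 5 of the 6, against 17.8% of all 32851 promoters in the table cut to the same length. Fos had 2 matches, Junb 1, Klf4 1, Nr4a1 4, Dusp1 3 and Jun 0. The sequences of Fos, Klf4 and Nr4a1 are shown as examples. They were picked with their EE to SH ratios known, so nothing is read from matches beside those ratios. The capitals mark TGACG, or CGTCA where the match is on the other strand. Fos lies at chr12:85473640-85473889 (plus strand), Klf4 at chr4:55532476-55532725 (minus strand) and Nr4a1 at chr15:101266596-101266845 (plus strand). Each is read 5′ to 3′ toward the RefSeq start, and all distances are from that start. For Nr4a1 and Dusp1 the window lies inside the wider GENCODE span of the gene given below.
Fos: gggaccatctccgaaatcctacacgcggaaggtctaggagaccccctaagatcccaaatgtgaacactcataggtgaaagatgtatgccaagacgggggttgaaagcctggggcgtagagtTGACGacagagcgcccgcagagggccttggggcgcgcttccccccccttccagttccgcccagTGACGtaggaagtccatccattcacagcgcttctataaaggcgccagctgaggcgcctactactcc
Klf4: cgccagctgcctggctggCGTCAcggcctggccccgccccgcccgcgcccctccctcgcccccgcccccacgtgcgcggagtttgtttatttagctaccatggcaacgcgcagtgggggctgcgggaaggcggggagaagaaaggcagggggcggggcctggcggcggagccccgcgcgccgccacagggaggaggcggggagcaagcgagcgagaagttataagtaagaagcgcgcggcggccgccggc
Nr4a1: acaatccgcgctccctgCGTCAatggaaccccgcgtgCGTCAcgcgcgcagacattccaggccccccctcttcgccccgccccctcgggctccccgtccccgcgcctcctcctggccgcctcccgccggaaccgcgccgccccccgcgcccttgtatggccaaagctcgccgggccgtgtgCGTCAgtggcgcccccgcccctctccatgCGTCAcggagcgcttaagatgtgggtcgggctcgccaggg

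In Fos the matches began 129 and 66 bases before the start, in Klf4 232 bases before it, and in Nr4a1 233, 213, 69 and 40 bases before it. The full element TGACGTCA, which contains TGACG, was in the Dusp1 promoter alone among the 6 and in 1.55% of all promoters. TATAAA was found in Fos alone among the 6, 33 bases before its start, and in 12.4% of all promoters. GCGTG, the core bound by the aryl hydrocarbon receptor that the series title names, was in the promoters of Fos, Junb and Nr4a1 and in 28.2% of all promoters. The CArG box of the serum response element, as CC, then 6 bases of A or T, then GG, was in none of the 6 windows and in 1.47% of all. Variants of this pattern and sites further upstream were not searched, so these genes may still have such elements. A match is a description of these letters and not a measured binding site.

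Fos and Egr1 had the largest EE to SH ratios of the 10 genes in hippocampus and over all cortex libraries. In cortex replicates 4 and 5 alone the order differed, with ratios of 1.92 for Klf4, 1.64 for Egr1, 1.64 for Ier2 and 1.48 for Fos. Over all cortex libraries they were followed by Klf4 and Dusp1, with ratios of 1.61 and 1.31, and in hippocampus the other 8 genes had ratios from 0.832 to 1.47. Arc was lower in EE cortex and slightly higher in EE hippocampus. Junb, Egr3, Nr4a1 and Klf4 had EE and SH values that overlapped in hippocampus and over all cortex libraries.

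Fos, the AP-1 subunit most used as an activity marker, lies on chromosome 12 from 85473890 to 85477273 (mm10). In hippocampus it measured 5.35, 6.53 and 6.97 FPKM in EE replicates 1 to 3, against 2.29, 0.643 and 1.63 FPKM in SH replicates 1 to 3. Every EE library was above every SH library, and the ratio of the means was 4.13 (log2 difference 1.58 ± 0.26, SE, on the log2(FPKM + 1) scale used for all differences). The low SH replicate 2 rested on 26 recovered reads. Its 95% Poisson interval of 0.420 to 0.942 FPKM covers counting error only and takes the recovered count as the true one. In cortex Fos measured 8.31, 7.96, 5.53, 3.45 and 6.14 FPKM in EE replicates 1 to 5, against 2.98, 3.17, 1.82, 3.23 and 3.26 FPKM in SH replicates 1 to 5. The lowest EE library, replicate 4, lay just above the highest SH library, replicate 5. The ratio of the cortex means was 2.17 (log2 difference 0.87 ± 0.20), and the log2 difference was 0.41 in the later pair of replicates, 4 and 5, against 1.18 over the first 3.

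Jun, the main partner of Fos in AP-1, is on chromosome 4 from 95049034 to 95052222. It had the highest FPKM of the 10 genes in each of the 4 groups. Hippocampus libraries gave 21.2, 21.8 and 21.4 FPKM in EE and 20.96, 16.5 and 18.8 FPKM in SH, so that the EE libraries sat just above the highest SH library. Cortex libraries gave 16.01, 17.9, 15.5, 17.1 and 16.3 FPKM in EE and 16.1, 15.1, 13.3, 13.9 and 10.8 FPKM in SH. The cortex groups overlapped, and the log2 differences were 0.19 ± 0.11 in hippocampus and 0.25 ± 0.10 in cortex.

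Junb, an AP-1 subunit that can restrain Jun, is on chromosome 8 from 84974484 to 84978718. It measured 2.97, 3.01 and 3.43 FPKM in EE and 2.67, 3.29 and 2.24 FPKM in SH hippocampus. Cortex levels were 4.15, 4.53, 3.66, 3.92 and 3.47 FPKM in EE and 3.88, 4.30, 5.26, 4.09 and 2.82 FPKM in SH. The groups overlapped in both tissues, and the highest and the lowest cortex libraries were both SH. The log2 differences were 0.16 ± 0.15 in hippocampus and -0.02 ± 0.12 in cortex.

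Egr1, a zinc finger factor induced by synaptic activity, is on chromosome 18 from 34859823 to 34864984. In hippocampus it measured 14.1, 17.1 and 22.5 FPKM in EE replicates 1 to 3, against 4.51, 3.74 and 5.76 FPKM in SH replicates 1 to 3. The groups were far apart, with a ratio of the means of 3.83 and a log2 difference of 1.73 ± 0.20. In cortex it measured 13.0, 16.9, 13.6, 13.3 and 11.6 FPKM in EE replicates 1 to 5, against 5.04, 7.55, 3.94, 7.55 and 7.63 FPKM in SH replicates 1 to 5. Again no EE library reached down to an SH library. The ratio of the cortex means was 2.16 (log2 difference 1.03 ± 0.17), made up of a log2 difference of 1.28 over the first 3 replicates and 0.64 over replicates 4 and 5.

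Egr3, which shares the DNA-binding domain type of Egr1, is on chromosome 14 from 70077203 to 70082614 and did not follow it. Its hippocampus levels were 1.04, 1.37 and 1.80 FPKM in EE and 1.41, 2.46 and 1.19 FPKM in SH. Its cortex levels were 3.24, 3.11, 2.87, 2.74 and 2.50 FPKM in EE and 3.20, 4.24, 2.33, 4.08 and 3.07 FPKM in SH. The groups overlapped in both tissues, although in cortex replicates 4 and 5 both EE libraries were below both SH libraries. The log2 differences were -0.14 ± 0.22 in hippocampus and -0.16 ± 0.13 in cortex.

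Klf4, known also as a factor that helps to reprogram cells, is on chromosome 4 from 55527143 to 55532466. Hippocampus levels were 1.67, 2.64 and 4.08 FPKM in EE and 2.97, 1.43 and 1.29 FPKM in SH, with overlapping groups. Cortex levels were 4.13, 4.96, 3.67, 3.98 and 3.999 FPKM in EE and 3.76, 2.33, 2.65, 2.55 and 1.599 FPKM in SH. Only SH replicate 1 reached into the range of EE cortex, and the ratio of the means was 1.61 (log2 difference 0.55 ± 0.14, and 0.39 ± 0.30 in hippocampus). Within cortex the Klf4 difference was 0.43 over the first 3 replicates and 0.72 over replicates 4 and 5.

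Nr4a1, a nuclear receptor that works without a known hormone, is on chromosome 15 from 101254269 to 101274795. It measured 2.21, 2.81 and 3.68 FPKM in EE and 2.68, 2.05 and 2.48 FPKM in SH hippocampus. Its cortex levels were 2.24, 2.77, 3.51, 3.07 and 2.85 FPKM in EE and 2.74, 3.51, 2.07, 4.03 and 3.54 FPKM in SH. The groups overlapped in both tissues, and the log2 differences were 0.18 ± 0.17 in hippocampus and -0.09 ± 0.13 in cortex.

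Ier2, a nuclear protein with a less settled role, is on chromosome 8 from 84661331 to 84662852. In hippocampus it measured 18.6, 17.8 and 14.4 FPKM in EE and 11.7, 12.1 and 13.8 FPKM in SH, without overlap. In cortex it measured 6.34, 7.41, 8.11, 7.16 and 7.25 FPKM in EE and 5.66, 6.62, 9.24, 5.30 and 3.47 FPKM in SH. SH replicate 3, the library that stood apart, held the highest cortex value. The log2 differences were 0.40 ± 0.12 in hippocampus and 0.27 ± 0.17 in cortex, where the first 3 replicates gave 0.04 and replicates 4 and 5 gave 0.63.

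Dusp1, the phosphatase that ends MAP kinase signalling and is itself induced by it, is on chromosome 17 from 26505590 to 26562128. Hippocampus libraries gave 14.6, 13.9 and 15.4 FPKM in EE and 12.4, 11.5 and 12.4 FPKM in SH. Cortex libraries gave 13.7, 16.7, 12.6, 15.8 and 12.5 FPKM in EE and 12.4, 11.8, 9.44, 11.6 and 9.48 FPKM in SH. The groups did not overlap in either tissue, but the gap in cortex was narrow. The log2 differences were 0.25 ± 0.09 in hippocampus and 0.36 ± 0.12 in cortex, where the first 3 replicates gave 0.33 and replicates 4 and 5 gave 0.39.

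Arc, the synaptic effector of the group, is on chromosome 15 from 74669083 to 74672570. In hippocampus it measured 1.45, 1.46 and 2.33 FPKM in EE replicates 1 to 3, against 1.204, 1.34 and 1.38 FPKM in SH replicates 1 to 3. The EE libraries were all above the SH libraries, by little except in EE replicate 3. In cortex the order was the other way, with 1.24, 1.93, 1.61, 0.838 and 1.24 FPKM in EE replicates 1 to 5 and 2.25, 2.12, 2.27, 2.79 and 2.52 FPKM in SH replicates 1 to 5. The highest EE cortex library was below the lowest SH cortex library. The ratio of the cortex means was 0.574 (log2 difference -0.53 ± 0.13), with -0.32 over the first 3 replicates and -0.85 over replicates 4 and 5, and the hippocampus log2 difference was 0.24 ± 0.17. Arc was low throughout, with 32 to 155 reads per library.

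**Figure D1:**
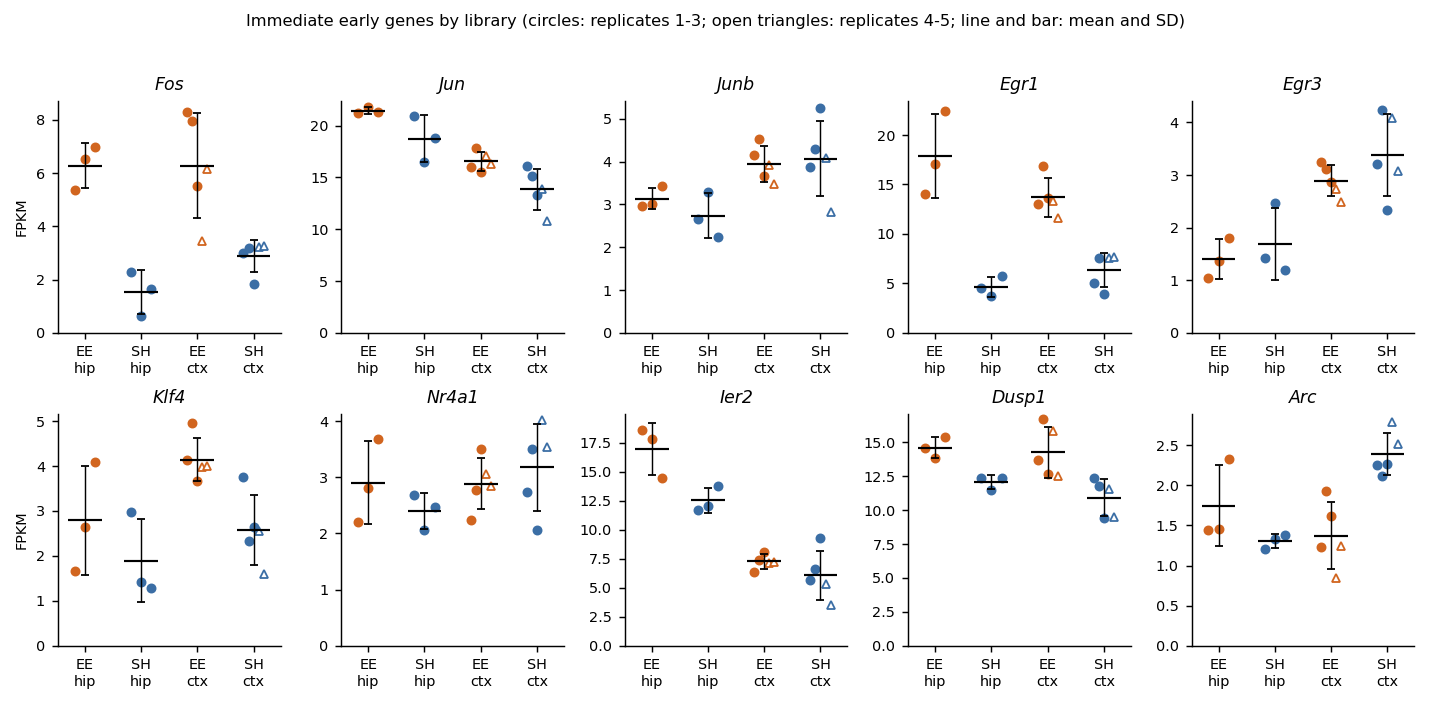
FPKM of each of the 10 genes in every library, with EE left of SH and hippocampus (hip) left of cortex (ctx). Circles are replicates 1 to 3, open triangles are cortex replicates 4 and 5, and the line and bar are the mean and SD; Fos and Egr1 show a gap between EE and SH in both tissues, and Arc a gap in the opposite direction in cortex.

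Counting libraries, all 8 EE libraries were above the SH mean of their own set for Fos, Jun, Egr1 and Dusp1. For Klf4 and Ier2 the number was 7 of 8, for Junb 6, for Nr4a1 4, for Arc 3 and for Egr3 1. In hippocampus 6 of the 10 genes had all EE libraries above all SH libraries (Fos, Jun, Egr1, Ier2, Dusp1 and Arc), against 2.59% of all genes tested, and 0 had them all below, against 7.32%. In cortex over all 10 libraries, 3 genes (Fos, Egr1 and Dusp1) were higher without overlap, against 0.606% of genes, and 1 (Arc) was lower, against 2.02%. Cortex replicates 1 to 3 taken alone had the same 3 genes higher, against 11.5% of genes, and Arc lower, against 18.6%. Cortex replicates 4 and 5 had 6 higher (Fos, Jun, Egr1, Klf4, Ier2 and Dusp1), against 21.9%, and 3 lower (Egr3, Nr4a1 and Arc), against 24.8%. Fos, Egr1 and Dusp1 were higher without overlap in hippocampus and in both cortex sets at once, as were 0.0975% of 12314 genes, while 0 of the 10 were lower in all 3 sets, against 0.755%. Since the 10 genes were picked with these values in view, nothing is read from their excess over the background.

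Across all genes, limma called 0 of the 10 in either tissue at an adjusted p of 0.05 or less. In hippocampus it called 0% of 13344 genes and in cortex 0.00798% of 12539, which is 1 gene and not one of the 10. At an unadjusted p under 0.05 there were 4 of the 10 in hippocampus, against 3.77% of all genes, and 6 of the 10 in cortex, against 7.45%. With limma-voom, run on the reads recovered from the values, 0 of the 10 were called in both. Cortex replicates 1 to 3 alone gave 0 called and 3 at an unadjusted p under 0.05, against 0% and 9.29% of all genes. Replicates 4 and 5 alone gave 1 called, lower in EE, and 4 at that p. With those 2 EE and 2 SH libraries 3.46% of all genes were called, 1.79% of all genes lower, and 17.1% had an unadjusted p under 0.05. The median log2 difference of the 10 was 0.24 in hippocampus and 0.26 in cortex, where the median of all genes was -0.01 and -0.02.

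**Figure D2:**
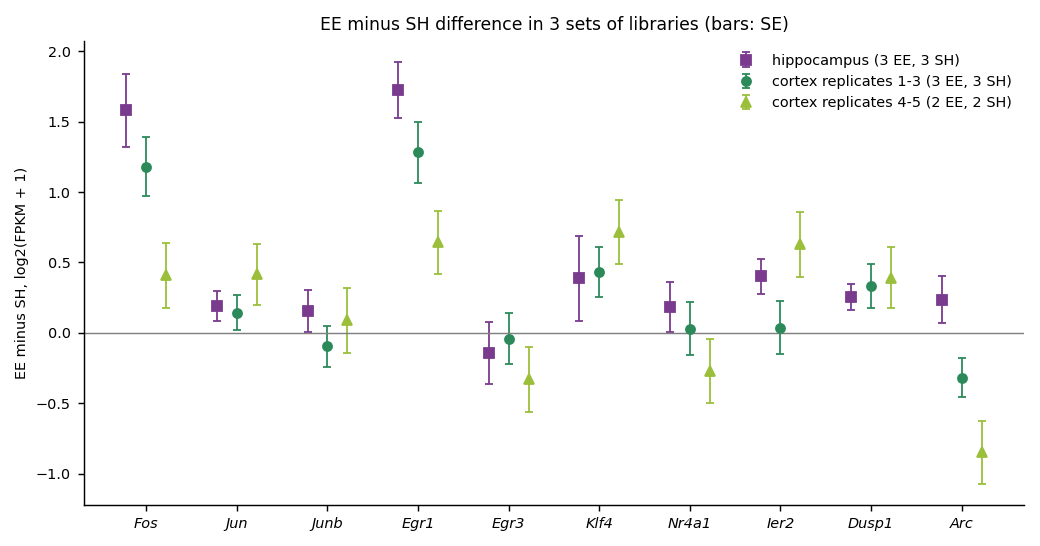
EE minus SH difference in log2(FPKM + 1) for each of the 10 genes, in hippocampus (squares, 3 EE and 3 SH libraries), cortex replicates 1 to 3 (circles, 3 and 3) and cortex replicates 4 and 5 (triangles, 2 and 2), with bars for the SE. Fos and Egr1 are highest in hippocampus and lower in cortex replicates 4 and 5, at 0.41 and 0.64, while Arc is above 0 in hippocampus and below 0 in both cortex sets.

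The EE difference itself was compared between tissues over replicates 1 to 3. The hippocampus difference exceeded the cortex difference by 0.44 ± 0.31 for Egr1, 0.40 ± 0.35 for Fos and 0.55 ± 0.21 for Arc on the log2 scale. None of the 10 genes passed (limma interaction term), where 0% of 13158 genes were called. At an unadjusted p under 0.05 there was 1 of the 10, against 7.52% of all genes. Limma-voom called 0 as well. The size of the interaction depended on single libraries and on the method. For Fos it ran from 0.12 without hippocampus SH replicate 2 to 0.76 with limma-voom, and it was 0.24 without cortex EE replicate 3. For Egr1 it ran from 0.23 without cortex SH replicate 2 to 0.62 without cortex SH replicate 3, and for Arc from 0.41 to 0.87.

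Several gene lists were read beside these values. In bulk tissue, fewer cells of a type and less RNA per cell cannot be told apart. The summed FPKM of 7 listed heat shock genes of 9 ran from 1125 to 1134 in EE hippocampus and from 953.5 to 994.5 in SH hippocampus, without overlap, and from 1115 to 1490 in EE cortex and from 957.4 to 1523 in SH cortex, with overlap. Within cortex replicates 4 and 5 it ran from 1205 to 1490 in EE and from 957.4 to 1169 in SH, without overlap, and within replicates 1 to 3 from 1115 to 1226 in EE and from 1025 to 1523 in SH, with overlap. Heat shock genes encode chaperones, and the sum is mostly Hspa8, which averaged 742.5 FPKM in EE hippocampus and 615.5 FPKM in SH hippocampus. All 7 heat shock genes tested in hippocampus, with Hspb1 in place of Hspa1a, which was below the minimum level there, had a log2 difference above 0. In cortex 4 of the 7 summed genes did, and limma called 0 in either tissue. The sum of the 7 pericyte and smooth muscle genes ran from 48.1 to 63.3 FPKM in EE cortex and from 64.7 to 71.5 FPKM in SH cortex, without overlap, and overlapped in hippocampus at 54.4 to 73.4 FPKM in EE and 55.8 to 91.3 FPKM in SH. Endothelial, microglial, meningeal, blood, choroid plexus and cortical neuron sums overlapped between EE and SH in hippocampus, and no gene counted in any of these sums was at 0 in any library. Within cortex replicates 1 to 3, microglial genes summed to 105.8 to 108.5 FPKM in EE and 116.5 to 203.6 FPKM in SH, and blood genes to 1137 to 1297 FPKM in EE and 1350 to 4073 FPKM in SH, both without overlap. Within cortex replicates 4 and 5 some sums were higher in EE without overlap. Microglial genes summed to 83.9 to 123.8 FPKM in EE and 71.96 to 81.8 FPKM in SH, endothelial genes to 83.7 to 118.9 FPKM in EE and 76.9 to 81.3 FPKM in SH, and cortical neuron genes to 471.5 to 545.2 FPKM in EE and 460.0 to 471.2 FPKM in SH. The other sums of these 6 lists overlapped within both cortex sets. The choroid plexus sum varied most, from 35.8 to 10460.0 FPKM in EE hippocampus and from 39.3 to 16900.0 FPKM in SH hippocampus. The part of heat shock genes or of other cell types in the EE and SH values of the 10 genes was not tested.

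None of the genes upstream of this group passed between EE and SH. Of 28 regulators, among them CREB coactivators, SRF cofactors, MAP kinases and calcium-dependent kinases, limma called 0 in hippocampus and 0 in cortex. In hippocampus 9 of 28 had a log2 difference above 0, with a median of -0.07, and in cortex 17 of 28, with a median of 0.03. The extremes in hippocampus were Rps6ka1 at 0.17 and Mapk3 at 0.13, both kinases of the MAP kinase route, against the SRF cofactor Mkl2 at -0.32 and the acetyltransferase Ep300 at -0.32. In cortex they were the SRF partner Elk4 at 0.28 and the kinase Rps6ka3 at 0.26, against the CREB coactivator Crtc2 at -0.18 and the CREB relative Atf1 at -0.18.

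A list of 38 other immediate early genes, of which 30 could be tested in each tissue, lay on both sides of 0 between EE and SH. In hippocampus 16 had a log2 difference above 0 and 14 below, with a median of 0.02, and in cortex 15 and 15, with a median of 0.00. Limma called 0 of them in either tissue. The highest in hippocampus were the Krüppel-like factors Klf2 at 0.43 and Klf10 at 0.37, and the lowest the nuclear receptor Nr4a3 at -0.45 and the small GTPase Gem at -0.39. In cortex the highest were Cyr61, a secreted matrix protein, at 0.48 and Ier5l at 0.45, and the lowest Gadd45b, which acts in DNA demethylation, at -0.37 and the G protein regulator Rgs2 at -0.34. Several genes used as activity markers in adult brain were given for fewer libraries: Fosb for 10, Atf3 for 12, and Egr2, Egr4 and Ptgs2 for 6 each. The rule behind a missing entry is not given in the sources used here, so none is read as a level. Npas4 was given for all 16 and averaged 0.429 ± 0.0816 FPKM in EE hippocampus and 0.358 ± 0.202 FPKM in SH hippocampus (SD, n = 3 each), and 0.961 ± 0.151 FPKM in EE cortex and 0.923 ± 0.331 FPKM in SH cortex (SD, n = 5 each).

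**Figure D3:**
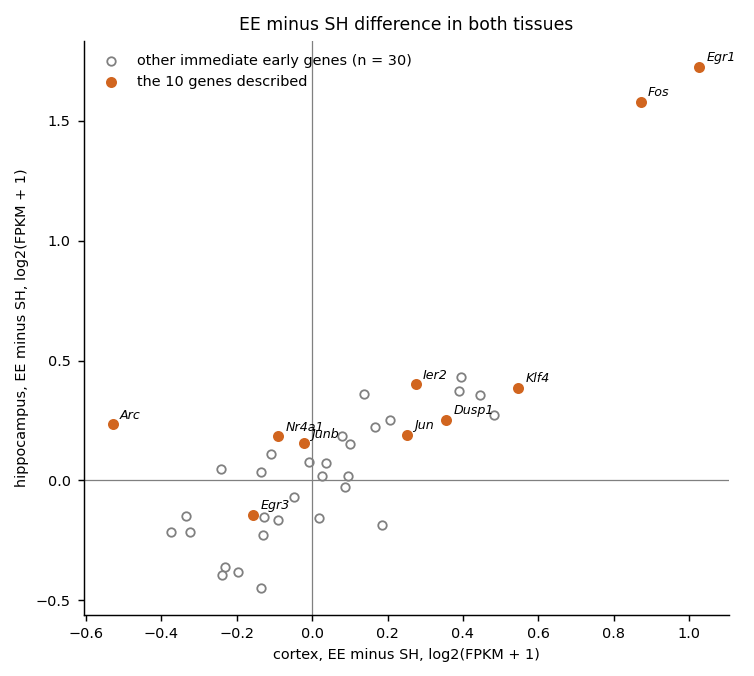
EE minus SH difference in log2(FPKM + 1) in cortex (horizontal) and hippocampus (vertical) for the 10 genes (filled, named) and 30 other immediate early genes (open). Fos and Egr1 lie alone at the upper right, at 1.58 and 1.73 in hippocampus, while the 30 others lie between -0.45 and 0.43 in hippocampus and between -0.37 and 0.48 in cortex.

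Between hippocampus and cortex limma called 5 of the 10 genes. Replicates 1 to 3 of both tissues were compared, 6 libraries each, with a term for housing. Limma called 35.4% of 13158 genes, 24.6% higher and 10.9% lower in hippocampus. Against that high background, 2 higher and 3 lower among the 10 is not read as a result about the group. At an unadjusted p under 0.05 the numbers were 5 of the 10 and 45.3% of all genes. The hippocampus and cortex values list different genes and cover different libraries, so the tissue and any difference in how these sets were prepared or processed cannot be told apart. Of 7 choroid plexus genes, 2 were called higher in hippocampus, Otx2 (log2 difference 2.20, limma, adjusted p = 0.00836) and Folr1 (2.94, adjusted p = 0.0298), and the part of that tissue in the values below was not tested.

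Every hippocampus library was above every cortex library for Ier2. It ran from 11.7 to 18.6 FPKM with a median of 14.1 FPKM in hippocampus, and from 5.66 to 9.24 FPKM with a median of 7.02 FPKM in cortex. The ratio of the means was 2.04, with a log2 difference of 0.93 ± 0.12 (limma, adjusted p = 0.000158). Jun was higher too, at 16.5 to 21.8 FPKM with a median of 21.1 FPKM in hippocampus and 13.3 to 17.9 FPKM with a median of 15.8 FPKM in cortex. The Jun ranges overlapped, and the log2 difference was 0.34 ± 0.08 (adjusted p = 0.00541).

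Egr3 was lower in hippocampus, at 1.04 to 2.46 FPKM with a median of 1.39 FPKM, against 2.33 to 4.24 FPKM with a median of 3.16 FPKM in cortex. The ratio of the means was 0.488 and the log2 difference -0.72 ± 0.14 (limma, adjusted p = 0.00194). Junb was lower without overlap, at 2.24 to 3.43 FPKM with a median of 2.99 FPKM in hippocampus and 3.66 to 5.26 FPKM with a median of 4.22 FPKM in cortex (log2 difference -0.43 ± 0.10, adjusted p = 0.00704). The background for such a gap is 14.9% of genes higher, where Ier2 stands, and 5.5% lower, where Junb stands. Klf4 was lower at 1.29 to 4.08 FPKM with a median of 2.15 FPKM in hippocampus and 2.33 to 4.96 FPKM with a median of 3.71 FPKM in cortex. Its log2 difference of -0.49 ± 0.18 passed narrowly (adjusted p = 0.0482) and no longer passed without any 1 of 9 of the 12 libraries, all except cortex SH replicate 3, hippocampus EE replicate 3 and hippocampus SH replicate 1 (adjusted p from 0.0502 to 0.107 in those 9).

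Fos, Arc, Nr4a1, Dusp1 and Egr1 did not pass between tissues. Fos had a log2 difference of -0.37 ± 0.18 (limma, adjusted p = 0.125), and it passed with quantile normalization (-0.54, adjusted p = 0.00944). Arc had -0.20 ± 0.13 (adjusted p = 0.240) and Nr4a1 -0.06 ± 0.13 (adjusted p = 0.757). Dusp1 had 0.07 ± 0.09 (adjusted p = 0.570) and Egr1 0.04 ± 0.16 (adjusted p = 0.859), and both changed sign under median-of-ratios scaling, quantile normalization and limma-voom. The median log2 difference of all genes was 0.09, and median-of-ratios scaling lowered it by 0.10 and called 2289 genes higher and 2108 lower where the unscaled values called 3233 higher and 1428 lower. The 5 genes called among the 10 were the same under that scaling.

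**Figure D4:**
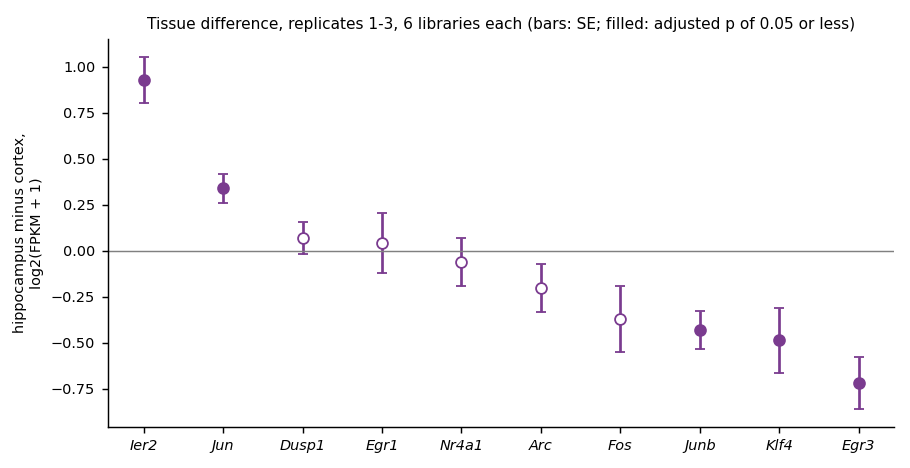
Hippocampus minus cortex difference in log2(FPKM + 1) for the 10 genes over replicates 1 to 3, 6 libraries per tissue, with bars for the SE and filled circles for an adjusted p of 0.05 or less. Ier2 (0.93) and Jun (0.34) pass above 0, and Junb (-0.43), Klf4 (-0.49) and Egr3 (-0.72) pass below it.

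Relatives and regulators were compared between the tissues as well. Of the 30 other immediate early genes tested, 8 were higher and 7 lower in hippocampus, where 24.6% of all genes tested were higher and 10.9% lower. The nuclear receptors Nr4a3 and Nr4a2, relatives of Nr4a1, were among the higher ones. Nr4a3 averaged 27.5 ± 8.64 FPKM in hippocampus and 5.29 ± 1.02 FPKM in cortex (SD, n = 6 each; log2 difference 2.14, limma, adjusted p = 3.78e-06), and Nr4a2 averaged 14.8 ± 4.67 FPKM in hippocampus and 5.69 ± 1.70 FPKM in cortex (1.23, adjusted p = 0.00063). Ier5 averaged 32.7 ± 5.56 FPKM in hippocampus and 11.9 ± 1.32 FPKM in cortex (log2 difference 1.38, adjusted p = 3.82e-06). Rgs2, which damps G protein signalling, was lower, at 9.44 ± 1.80 FPKM in hippocampus and 15.8 ± 2.85 FPKM in cortex (log2 difference -0.68, adjusted p = 0.0007). Of the 28 upstream regulators, 6 were higher, among them the CREB coactivator Crtc3 (log2 difference 0.82, adjusted p = 4.81e-05). The 4 lower ones included the transcription factor Mef2c (-1.67, adjusted p = 0.000617), the kinase Camk2a (-0.66, adjusted p = 0.00126) and the MAP kinase kinase Map2k1 (-0.41, adjusted p = 0.00236). The regulators' share of calls was near that of all genes, 35.4% in either direction, and is not a result about them.

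The order of the 10 genes by level changed with tissue and housing. In EE hippocampus the means were 21.5 ± 0.303 FPKM for Jun, 17.9 ± 4.26 for Egr1, 16.9 ± 2.22 for Ier2 and 14.6 ± 0.763 for Dusp1 (SD, n = 3), followed by Fos at 6.28 ± 0.835. The ranges of neighbours among the first 4 overlapped, while Fos lay below all of them. In SH hippocampus the order was Jun at 18.8 ± 2.23 FPKM, Ier2 at 12.5 ± 1.09, Dusp1 at 12.1 ± 0.514 and Egr1 at 4.67 ± 1.02, with Fos in place 9 at 1.52 ± 0.831 (SD, n = 3); only Ier2 and Dusp1 of the first 4 had overlapping ranges. In EE cortex Jun at 16.6 ± 0.927 FPKM, Dusp1 at 14.3 ± 1.903 and Egr1 at 13.7 ± 1.96 came first (SD, n = 5), all with overlapping ranges. In SH cortex Jun at 13.8 ± 2.02 FPKM and Dusp1 at 10.9 ± 1.37 were followed by Egr1 at 6.34 ± 1.74 and Ier2 at 6.06 ± 2.12 (SD, n = 5), and Egr1 could not be told from Ier2 by these values. Arc had the lowest mean in SH hippocampus and in both cortex groups, and Egr3 in EE hippocampus. Among the 13396 genes given for all libraries, Egr1 stood at percentile 69.7 in EE hippocampus and 29.7 in SH hippocampus, and Fos at percentile 39.0 in EE hippocampus and 9.42 in SH hippocampus.

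Likeness in pattern was measured as Pearson's r over the 16 libraries after centring each of the 3 sets, among 12071 genes, as a description. All 16 points share the housing contrast, so genes that differ with it score high together. Egr1 was most like Fos (r = 0.926), followed by the Krüppel-like factor Klf10 (0.832), Brinp3 (0.806), the kinase Pim1 (0.798) and the lipid kinase Pip4k2a (0.786), with Dusp1 in place 6 (0.774). Fos was most like Egr1, followed by Klf10 (0.832), the formin Daam2 (0.801), the histone chaperone Nasp (0.796) and the thioredoxin inhibitor Txnip (0.789). Within the 10 genes, r with Egr1 was 0.634 for Jun, 0.606 for Klf4 and 0.442 for Ier2, but 0.113 for Junb, -0.119 for Arc and -0.166 for Egr3.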

How the data were processed

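RNA was extracted with Trizol and libraries were built with a NEBNext Ultra kit, per the labels' protocols. The authors deposited 1 list of gene symbols and FPKM values per library. The tools DESeq2, edgeR, StringTie 1.3.4d, HISAT2 2.0.4 and cutadapt 1.9 are listed with the build mm10 in the submitters' processing notes, with no roles. Which annotation was used and how genes were filtered is not given in the sources used here, and a gene not listed was treated as missing, never as 0.

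The 10 genes and all gene lists were chosen with earlier results of these data known. Reads were recovered from the FPKM steps at a tolerance of 0.0005 reads for 99.96% to 99.97% of genes per library, up to a common factor. The recovered genes held 90.6% to 94.2% of the summed FPKM of a library. The recovery and the tests were tested on simulated data. The two-sided test was limma 3.58.1 under R 4.3.3, with the trended eBayes step after lmFit, on log2(FPKM + 1). It covered genes that every library compared lists and whose mean FPKM was 1 or more. P-values were adjusted by Benjamini-Hochberg over all genes tested, with a threshold of 0.05. The cortex comparison had a term for the set of replicates, the tissue comparison used replicates 1 to 3 with a term for housing, and the interaction used the same libraries. The FPKM scale understates the change of low genes because of the pseudocount of 1. A Poisson interval has a level of 95%.

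Named beside the 10 genes were, of each list, up to 4 genes with the smallest p where any passed, otherwise the 2 highest and 2 lowest differences, and the 5 genes most like Egr1 and Fos. Zbtb20, Prox1, Lmo3, Hspa8, Npas4 and the genes said to be given for few libraries were named after their values were seen. Positions came from GENCODE M21 (GRCm38, which is mm10). The alternatives were scaling by quantiles or by median of ratios, pseudocounts of 0.01 and 0.1, a minimum mean FPKM of 5 or none, limma-voom on recovered reads, a replicate block, single sets of cortex replicates, no set term and leaving out each library. Removal of each library's trend on length, GC content and level, and the alternatives of the interaction, were added after seeing the data.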

Additional observations from a re-analysis of the deposited data

Results flagged for a closer look

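Fos in cortex SH replicate 3 measured 1.82 FPKM, below the other 4 SH cortex libraries at 2.98 to 3.26 FPKM. The EE and SH cortex groups of all 10 genes were examined for such gaps, with a critical value set so that about 5% of groups pass it by chance. Only this gap passed, about as many as chance alone would give, so it is not read as a result. The same library had the highest summed FPKM of the 16, and its part in the value was not tested.

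Arc differed from SH in opposite directions in the tissues: all 3 EE hippocampus libraries were above the SH hippocampus mean, and all 5 EE cortex libraries were below the SH cortex mean of their set. The EE difference in hippocampus exceeded that in cortex by 0.55 ± 0.21 on the log2 scale over replicates 1 to 3. In limma's interaction test this did not pass, as 0 of 13158 genes did.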

How the results depend on the processing

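The number of the 10 genes called was 0 for EE against SH in hippocampus under all 15 alternatives, and 0 for the interaction under all 21. In cortex it was 1 with the trend on length, GC content and level removed, an alternative chosen after seeing the data. It was also 1 with replicates 4 and 5 alone. Over all genes the cortex count of 1 became 3 with quantile normalization, 9 with that trend removed, 0 with replicates 1 to 3 alone, 435 with replicates 4 and 5 alone and 0 without the set term. Leaving out 1 library gave 1 to 3, with 3 without cortex SH replicate 3. Between tissues, a mean FPKM of at least 5 left 4 of the 10 to test, of which 2 were called, and lowered the count over all genes to 2744. Egr1 turned to -0.060 (median-of-ratios), -0.11 (quantile) and -0.042 (voom), and Dusp1 to -0.040, -0.048 and -0.044 in the same order. Leaving out 1 library gave -0.056 to 0.16 for Egr1 (below 0 without cortex EE replicate 1, cortex SH replicate 3 or hippocampus EE replicate 3) and -0.13 to 0.011 for Nr4a1 (above 0 without cortex SH replicate 2). Quantile normalization and voom called 2155 and 2271 genes higher and 2066 and 2097 lower. Between EE and SH, leaving out 1 hippocampus library moved the log2 difference to 0.053 for Egr3 and 0.11 for Jun (without SH replicate 2), 0.15 for Klf4, 0.089 for Arc and 0.044 for Nr4a1 (without EE replicate 3) and 0.058 for Junb (without SH replicate 3), while Fos stayed at 1.2999 to 1.80 and Egr1 at 1.56 to 1.88. In cortex Junb ran from -0.10 to 0.042 (above 0 without SH replicate 3), Ier2 was 0.14 without SH replicate 5, Fos stayed at 0.73 to 1.05 and Egr1 at 0.89 to 1.11. The causes were not tested.

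Deviations of samples of the same number had r from -0.56 to 0.41. For EE with SH it ran from 0.09 to 0.41 in cortex and from -0.56 to 0.36 in hippocampus. Deviations were centred in small groups and the labels name no pairs, so whether equal numbers are pairs cannot be decided. With the replicate block limma called 0 of the 10 in hippocampus, 0 in cortex and 5 between tissues. Over all genes it called 0, 1 and 4357. Fos in hippocampus SH replicate 2 and Arc in cortex EE replicate 4 rest on 26 and 32 reads.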

Other observations

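Late targets of neuronal activity, which the transcription factors above are known to act on in adult neurons, were also read. Of 12 such genes, limma called 0 of 9 tested in EE against SH hippocampus and 0 of 10 in cortex. In hippocampus the log2 differences ran from -0.37 for Tac1, a neuropeptide precursor, and -0.30 for Nrn1, a neurite growth protein, to 0.27 for Npy and 0.29 for Cort, both neuropeptides. In cortex they ran from -0.34 for Npy and -0.21 for Nrn1 to 0.06 for Vgf, a secreted granule protein, and 0.10 for Cort. Between tissues 7 of 9 were lower in hippocampus and 0 were higher, where 10.9% of all genes tested were lower and 24.6% higher. Tac1 averaged 1.23 ± 0.598 FPKM in hippocampus and 21.3 ± 4.85 FPKM in cortex (SD, n = 6 each; log2 difference -3.34, limma, adjusted p = 6.62e-08), and Scg2, a granin, 14.1 ± 1.61 FPKM in hippocampus and 64.9 ± 4.72 FPKM in cortex (-2.13, adjusted p = 5.82e-08). Penk, an opioid precursor, and Sst, the interneuron peptide somatostatin, had log2 differences of -2.60 (adjusted p = 4.47e-06) and -2.32 (adjusted p = 1.32e-05). This list too was chosen with earlier results of these data known. The part of cell composition in these tissue differences was not tested, and they are not read as a difference in activity.

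Of 9 genes of the aryl hydrocarbon receptor pathway that the series title names, limma called 0 of 8 tested in EE against SH hippocampus and 0 of 7 in cortex. In hippocampus 1 of the 8 had a log2 difference above 0, and in cortex 3 of the 7. The differences ran from -0.21 for Tiparp, a target of the receptor, to 0.40 in hippocampus. In cortex they ran from -0.14, again for Tiparp, to 0.21. The summed FPKM of the listed genes of the pathway ran from 134.4 to 139.7 in EE cortex and from 86.25 to 122.2 in SH cortex within replicates 1 to 3. Within replicates 4 and 5 it ran from 115.1 to 119.0 in EE cortex and from 135.6 to 142.8 in SH cortex, so the direction of the sum differed between the sets. The sum is mostly Arnt2, which averaged 78.6 FPKM in EE cortex and 69.4 FPKM in SH cortex, and Src, at 28.9 and 29.1 FPKM. Between tissues 2 of the 7 genes tested were called higher in hippocampus and 0 lower. Of all genes tested, 24.6% were higher and 10.9% lower, so this is not read as a result about the pathway. The 2 were Arnt, the receptor's partner, and Tiparp (log2 differences 0.59 and 0.49, limma, adjusted p = 0.00714 and 0.00354).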
